A study of Mus musculus with 6 samples.

Results

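A set of 50 mouse genes of ribosome biogenesis and the nucleolus was examined in keratinocytes, the main cell type of the epidermis, after transfection with miR-148a. The genes were chosen by symbol for their known role in making ribosomes, in a list drawn up with earlier results of these data known, and are 50 of the 25112 named genes in the authors' deposited table. The cells were wild type C57BL/6 epidermal keratinocytes taken from the skin of pups at postnatal day 1 to 3 and grown to subconfluence in medium with 0.05 mM calcium, a level at which such cells are usually kept undifferentiated. The 3 control libraries came from cells given miR-Control and the other 3 from cells given pro-miR-148a at 200 nM, and RNA of both groups was taken 48 hours after transfection. The title of the library taken as the third pro-miR-148a replicate carries the sample number 1 as well as replicate 3, so it may come from the same sample as replicate 1. The libraries of a group are not described as separate cultures or litters, so the p-values measure the spread between these libraries, which may be technical. The table holds, for each RefSeq transcript, a base mean (the mean normalized count over all libraries), a log2 fold change with its standard error (SE), and an adjusted p from the authors' Wald test. It gives no value per library, so sample values, depth and the overlap of the groups cannot be shown, and every error below is the SE of the authors' fit.

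Ribosomes are built in the nucleolus. RNA polymerase I transcribes a long precursor RNA, small nucleolar ribonucleoproteins (snoRNPs) guide its methylation and pseudouridylation, and a large number of assembly factors fold, trim and export the 40S and 60S subunits. The genes for these factors tend to be transcribed together in growing cells, among others under MYC and mTORC1, and they are distinct from the genes for the ribosomal proteins themselves.

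Which group forms the numerator of the fold changes is not stated in the table. As deposited, values were read as control over miR-148a and their sign was turned, because the table names the control first and because genes with 3' UTR sites for miR-148a, which miRNAs usually lower, would otherwise be higher with it. These site values therefore chose the sign and are no test of it. After turning, the median log2 fold change was -0.10 over 433 tested genes with an 8mer site, -0.05 over 1131 with a 7mer-m8 site, -0.04 over 680 with a 7mer-A1 site and 0.01 over 6023 with no site. Rock1, a kinase gene with a 7mer-m8 and a 7mer-A1 site in its 3' UTR, then had -0.26 ± 0.09 (adjusted p 0.0106) in the authors' deposited table. Every direction below rests on this reading and would flip with it.

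The mature miRNA is shown first, with its seed (bases 2 to 8) in capitals, because the sites searched for in the genes are complements of it (sequence from RefSeq's miRNA records, GRCm38.p6). It reads 5' to 3':
mmu-miR-148a-3p: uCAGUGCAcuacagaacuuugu

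Ribosome biogenesis genes held such sites no more often than other genes. In the longest 3' UTR annotated in GENCODE M21 (GRCm38), 9 of the 50 genes (18.0%) held a 7mer-m8 (TGCACTG) or 7mer-A1 (GCACTGA) match, against 22.7% of the tested genes with a UTR, and none of the 50 held an 8mer (TGCACTGA). Their UTRs were also shorter, with a median of 828 bases against 1260. The 50 include genes without an adjusted p, while the genes they are compared with were all tested. The sites of 4 genes with precise fold changes are printed with the match in capitals and their flanks from the mouse reference, so that the change of each can be read against its site, and those of Nol9 and Nol11 follow because they resemble each other:
Nol6: tcagggcaccaGCACTGAgcagtgggaggg
Ftsj3: gtaccatgaaaGCACTGAggaaacatttct
Utp15: cttatcattccTGCACTGggctggtctgtg
Nop14: aagcctcccctTGCACTGggcaaatagact
Nol9: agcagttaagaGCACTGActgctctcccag
Nol11: agcaattaagaGCACTGActgctctttcag

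None of the 43 tested genes of the set was called lower, so the same holds for those with a site and is no test of the sites. Nol6 and Ftsj3, each with a 7mer-A1 match, were among the genes called higher, and Utp15 and Nop14, each with a 7mer-m8 match, were not called. Windows around the sites of Nol9 and Nol11 were equal at 27 of 30 bases. Whether both lie in copies of a repeated element was not examined, so the likeness is not read as particular to these genes. Nol9 had 0.26 ± 0.39 (base mean 8.61) in the authors' deposited table, and every transcript of Nol11 was listed there at 0. The remaining genes with a site were Wdr12, with 2 of them, and Nhp2 and Nip7, which were listed at 0.

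Of the 50 genes, 43 had an adjusted p, 16 were higher with miR-148a at an adjusted p under 0.05 in the authors' deposited table (37.2%), none was lower, and 27 did not pass. Over all 11038 tested genes, 16.7% were higher and 16.8% were lower. The median log2 fold change of the 43 genes was 0.14, a 1.10-fold difference, with 33 positive and 10 negative values, against -0.01 over all tested genes. The shift was made of small changes, since the 16 called genes ran from 0.14 to 0.58 (1.10 to 1.5-fold, median 0.25). At an unadjusted p under 0.05 in the authors' Wald test, 2 genes were lower, Nop56 and Rrp9. Both also passed as lower, beside 12 genes higher, when the fold changes were centred on the median of abundant transcripts (0.045 at a base mean of at least 1000), so the absence of lower calls depends on the centring.

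Most of these genes are expressed well, which makes a small change easier to call. Among the 3569 genes whose base mean reached 1000, 31.7% were higher and 24.2% were lower, with a median of 0.05. The 37 ribosome biogenesis genes at that level included all 16 called ones (43.2%), none of them lower, with a median of 0.14 and 30 positive values. The share of higher calls therefore stood nearer to its background than over all genes, and the share of lower calls stayed below it. No test of these shares was made.

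**Figure D1:**
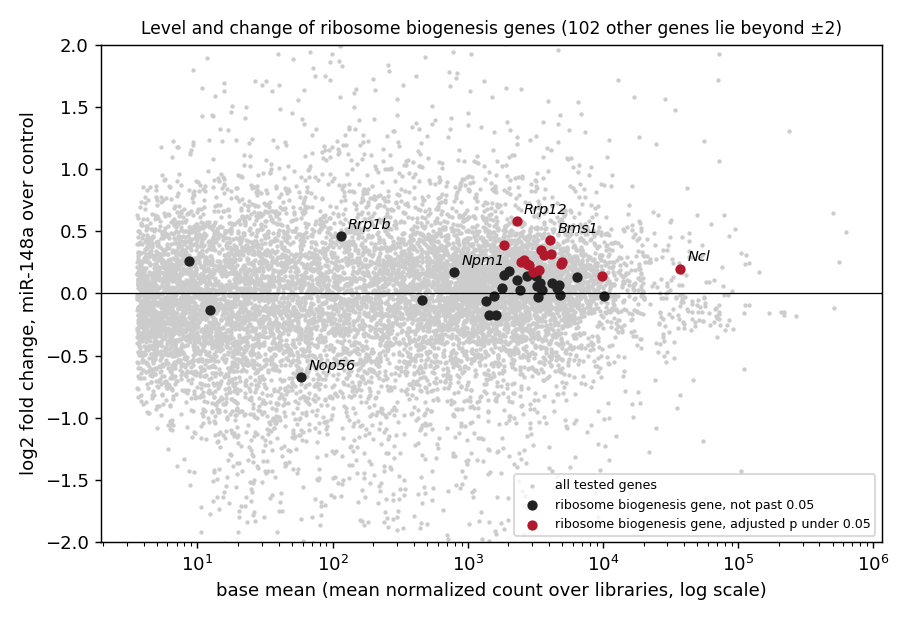
Log2 fold change of miR-148a over control (vertical axis) against base mean, the mean normalized count over all libraries (horizontal axis, log scale), for all 11038 tested genes, grey, and the 43 ribosome biogenesis genes, red where the adjusted p was under 0.05 and black otherwise. The 16 red points lie between 0.14 and 0.58 and all have base means above 1000.

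Among the 50 genes, those with several transcript rows had lower base means than those with 1 row. For the 37 genes with a single RefSeq row the base mean was at least 1368 and the SE was 0.06 to 0.09. The other 13 genes had 2 or more transcript rows, and none of them reached a base mean above 796. Of those 13, 6 were tested, with SEs of 0.11 to 0.39 and no call. Another 5, namely Nhp2, Nolc1, Nol11, Mrto4 and Nip7, were listed at 0 in every row, while in the authors' deposited table Dkc1 (base mean 2.94) and Gnl3 (base mean 1.15) carried no adjusted p. Each of these genes is normally used by dividing cells, so a listing at 0 is given only as a listing, and the fold changes of genes with several rows describe 1 transcript only.

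Of the 5 members for abundant nucleolar proteins and for RNA polymerase I with its helicase, 3 were called higher. These are too few to set against the 31.7% of all genes with a base mean of 1000 or more. Other subunits of the polymerase, outside the set, are given further below. Ncl, which encodes nucleolin, a histone and pre-rRNA chaperone, had a log2 fold change of 0.20 ± 0.06 (95% interval 0.09 to 0.32, adjusted p 0.00215, base mean 37312, accession NM_010880) in the authors' deposited table. Npm1, encoding nucleophosmin, had 0.17 ± 0.11 (-0.04 to 0.39, adjusted p 0.249) from 1 of its 3 rows in the authors' deposited table. The estimates of Ncl and Npm1 are close, and only Ncl, with the smaller SE, passed. The Npm1 value describes 1 transcript only, at a base mean of 796, and its other rows were listed at 0.

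Both measured catalytic subunits of RNA polymerase I rose. In the authors' deposited table Polr1a, the largest subunit, had 0.35 ± 0.07 (adjusted p 4.83e-06) and Polr1b, the second largest, had 0.39 ± 0.09 (adjusted p 0.000144). Ddx21, a nucleolar RNA helicase tied to polymerase I transcription and rRNA processing, did not follow them, with -0.02 ± 0.06 (-0.14 to 0.10, base mean 10133) in the authors' deposited table. Its interval lies below the estimates of both polymerase subunits.

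Transcripts of the snoRNP proteins gave 1 call among 3 tested box C/D genes and none among 2 tested box H/ACA genes. These are too few to set against the 16.7% of all tested genes that were higher. Fbl, fibrillarin, the methyltransferase of the box C/D snoRNPs, rose by 0.25 ± 0.07 (adjusted p 0.00362) in the authors' deposited table, while its partner Nop58 had 0.07 ± 0.08 (adjusted p 0.589). The third core protein gene, Nop56, gave the lowest value of all 43 genes, -0.67 ± 0.29 (-1.22 to -0.11, adjusted p 0.0595) in the authors' deposited table. That value came from a non-coding transcript, NR_149733, at a base mean of 58.8, and its mRNA row NM_024193 was listed at 0, so it does not describe the Nop56 mRNA. Of the box H/ACA proteins, which serve pseudouridylation, Gar1 had -0.02 ± 0.08 and Nop10 had 0.03 ± 0.09 in the authors' deposited table. Neither passed, and the pseudouridine synthase Dkc1, Nhp2 and the snoRNP chaperone Nolc1 could not be judged.

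Among the 15 factors of the small subunit processome and 40S maturation, 14 were tested, 4 rose (28.6%, against the 31.7% of all genes with a base mean of 1000 or more), and the median was 0.04. Rrp12, a HEAT-repeat factor of pre-ribosome maturation and export, had the highest value of the whole set, 0.58 ± 0.07 (0.44 to 0.73, adjusted p 5.98e-14, 1.5-fold, accession NM_199447) in the authors' deposited table. Bms1, a GTPase of the processome, followed with 0.43 ± 0.07 (adjusted p 1.14e-09) in the authors' deposited table. Nol6, a processome protein, had 0.27 ± 0.07 (adjusted p 0.000492), and Utp20, a large scaffold protein, had 0.17 ± 0.07 (adjusted p 0.0435) in the authors' deposited table. No other factor of this role passed, which left 10 without a call.

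Other processome genes lay near 0 with narrow intervals. Heatr1, a scaffold also needed for polymerase I transcription, had -0.03 ± 0.07 (-0.16 to 0.10), and Nop14 had -0.01 ± 0.07 in the authors' deposited table. Wdr43 had 0.04 ± 0.07, Utp3 had 0.03 ± 0.07 and Nol10 had 0.04 ± 0.08 in the authors' deposited table. On the negative side were Utp14a with -0.17 ± 0.09 (adjusted p 0.191), Rrp9, the protein that binds the U3 snoRNA, with -0.17 ± 0.08 (adjusted p 0.095), and Tsr1 with -0.06 ± 0.09 in the authors' deposited table. Utp15 (0.15 ± 0.07, adjusted p 0.117) and Nob1, the endonuclease that makes the 3' end of 18S rRNA (0.11 ± 0.07, adjusted p 0.311), were on the positive side without passing in the authors' deposited table.

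Large subunit assembly, the role with the most members, held the largest number of called genes. Of its 20 members 17 were tested, 8 rose and none fell. The share that rose was 47.1%, against 31.7% of all genes with a base mean of 1000 or more. The sets are not alike, since Wdr12 (12.3), Nol9 (8.61) and Rrp1b (115) among the 17 had base means below 1000 and were not called. Of the 17 values 16 were positive, with a median of 0.19. Nop2, the rRNA cytosine methyltransferase, had 0.32 ± 0.07 (adjusted p 1.57e-05), and Rrs1, which brings the 5S ribonucleoprotein to the precursor, had 0.31 ± 0.07 (adjusted p 0.000127) in the authors' deposited table. Nop16 had 0.25 ± 0.08 (adjusted p 0.00665), Ddx56 had 0.24 ± 0.07 (adjusted p 0.0035) and Ddx18 had 0.23 ± 0.07 (adjusted p 0.00754) in the authors' deposited table. Ddx56 and Ddx18 encode helicases.

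The 3 weakest calls among them had adjusted p-values above 0.01. Ftsj3, a methyltransferase of pre-rRNA processing, had 0.24 ± 0.08 (adjusted p 0.0133), Brix1 had 0.19 ± 0.07 (adjusted p 0.0329) and Rrp1 had 0.14 ± 0.06 (adjusted p 0.0421) in the authors' deposited table. These 3 and Utp20 were lost both at an adjusted p of 0.01 and when the values were centred on abundant transcripts, which left 5 large subunit calls in each case.

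The PeBoW complex, which processes the 60S precursor, was not called. Pes1 had 0.13 ± 0.07 (adjusted p 0.145) and Bop1 had 0.14 ± 0.07 (adjusted p 0.118) in the authors' deposited table, and the third subunit gene Wdr12 was measured only at a base mean of 12.3, with -0.13 ± 0.39. Pes1 and Bop1 differed little from Rrp1, which passed with a fold change of the same size and a smaller SE. Other large subunit genes without a call were Ppan (0.18 ± 0.09), Wdr74 (0.14 ± 0.08), Gnl2 (0.08 ± 0.07) and Ebna1bp2 (0.08 ± 0.08) in the authors' deposited table. Rrp1b, a paralogue of Rrp1, had 0.46 ± 0.23 (adjusted p 0.132, base mean 115) in the authors' deposited table, too imprecise to set against Rrp1.

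The nuclear export factors were not called. Nmd3, the adaptor of the 60S subunit, had 0.06 ± 0.08 (adjusted p 0.678), and the exportin Xpo1 had -0.05 ± 0.12 (adjusted p 0.834) in the authors' deposited table. Over all 27 genes that did not pass, the 95% intervals of 23 stayed within a 1.5-fold change in either direction, so larger changes of those 23 transcripts lie outside their intervals. Differences between the roles were not tested.

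**Figure D2:**
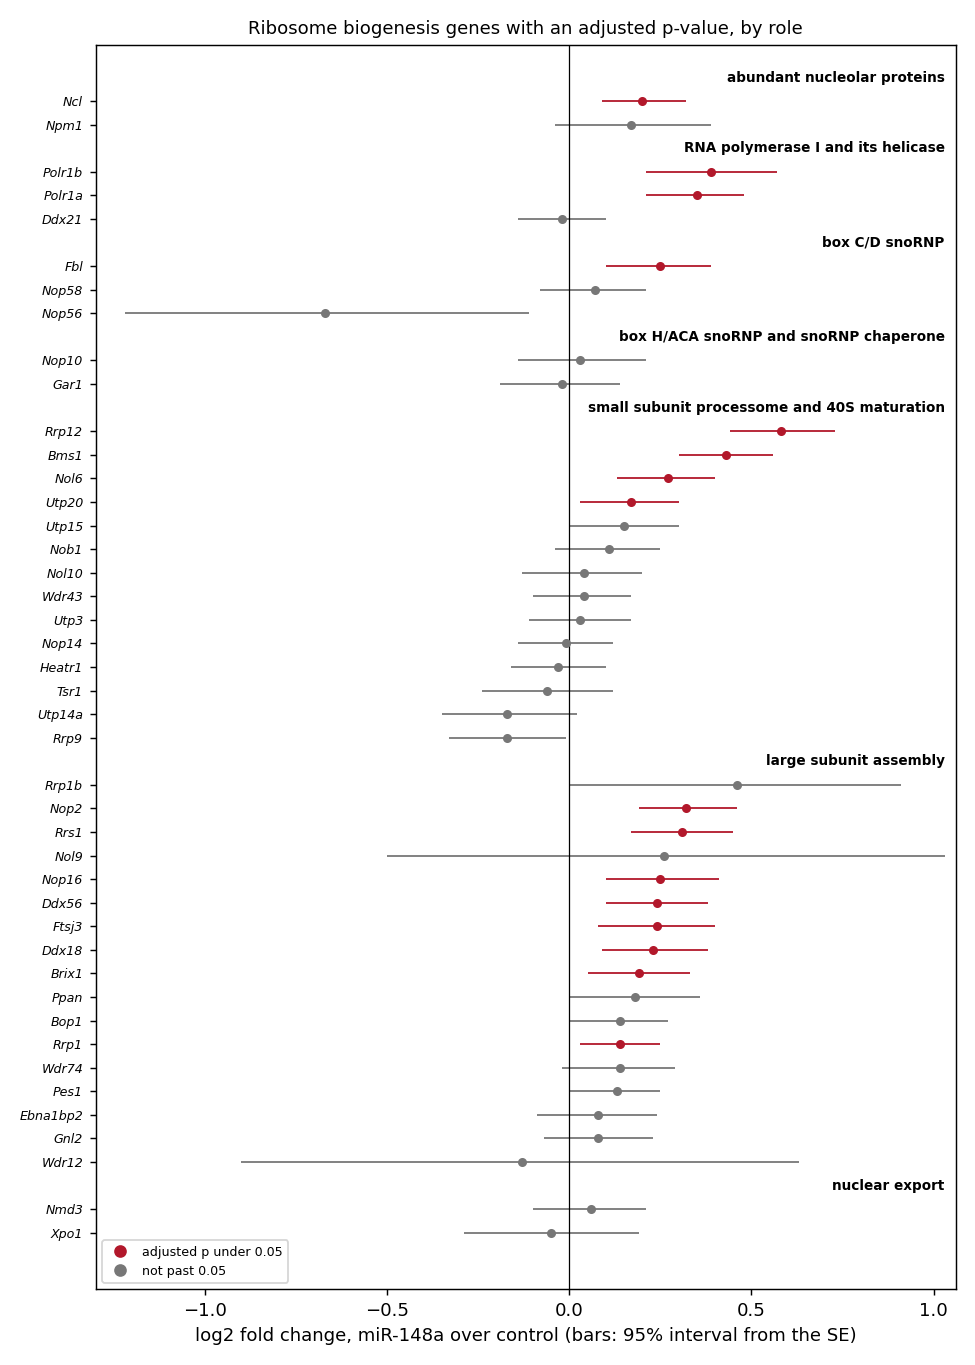
Log2 fold change of miR-148a over control (horizontal axis) for the 43 tested ribosome biogenesis genes, grouped by role, with 95% intervals from the SE of the authors' fit, and red points for an adjusted p under 0.05. The 8 red genes of large subunit assembly lie between 0.14 and 0.32, and Rrp12 at 0.58 is the highest red point.

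Promoters are described for the set as a whole, whether or not a gene was called. RefSeq promoter windows (250 bases before to 50 after the gene start, GRCm38.p6) were matched by symbol for 43 of the 50 genes, 12 of them called higher. Some of these windows belong to genes without an adjusted p, such as Nhp2, Nolc1 and Nip7, while the windows they are compared with are all of tested genes. Both strands were searched for fixed words, and matches of different words that overlap were counted for each. The ETS word CCGGAAG was in 14 of 43 windows (32.6%) against 17.2% of the 8546 windows of tested genes, and the E-box CACGTG, the site of MYC and MAX, was in 7 (16.3%) against 10%. The word TCTCGCGA was in 5 (11.6%) against 2.13%, the variant E-box CACGCG in 13 (30.2%) against 17.1%, and ATGGCGGC, part of a YY1 site, in 4 (9.3%) against 5.01%. Shares of GCATGCGC (4.65% against 4.7%), GGGCGG (67.4% against 62.4%) and TATAAA (9.3% against 7.93%) were closer to those of the tested genes.

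Of the 12 called genes with a window, 8 held GGGCGG, 3 held CCGGAAG, 2 held CACGTG, 3 held CACGCG, 2 held ATGGCGGC, 1 held GCATGCGC and none held TCTCGCGA or TATAAA, and these counts are too small to compare. The 250 bases before the start are shown for Nop2, Bms1 and Brix1, the called genes with an E-box or ETS word wholly before the start, with those words in capitals. Nop2 lies on the plus strand at chr6:125131633-125131882, with the E-box starting 60 and the ETS word 38 bases before the start. Bms1 lies on the minus strand at chr6:118419418-118419667, with the ETS word on the opposite strand. Brix1 lies on the minus strand at chr15:10485938-10486187, with the ETS word starting 82 bases before the start. A match is a run of letters and not a measured binding site.
Nop2: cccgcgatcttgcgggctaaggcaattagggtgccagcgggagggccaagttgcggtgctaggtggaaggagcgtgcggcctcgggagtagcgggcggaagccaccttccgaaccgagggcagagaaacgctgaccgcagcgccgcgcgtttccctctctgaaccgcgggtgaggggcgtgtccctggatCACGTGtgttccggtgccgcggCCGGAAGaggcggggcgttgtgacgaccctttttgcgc
Bms1: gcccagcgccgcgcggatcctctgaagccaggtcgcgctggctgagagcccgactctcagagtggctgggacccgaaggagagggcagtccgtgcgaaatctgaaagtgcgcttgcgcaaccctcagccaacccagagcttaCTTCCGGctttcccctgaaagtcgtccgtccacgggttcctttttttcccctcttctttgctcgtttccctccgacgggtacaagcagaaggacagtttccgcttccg
Brix1: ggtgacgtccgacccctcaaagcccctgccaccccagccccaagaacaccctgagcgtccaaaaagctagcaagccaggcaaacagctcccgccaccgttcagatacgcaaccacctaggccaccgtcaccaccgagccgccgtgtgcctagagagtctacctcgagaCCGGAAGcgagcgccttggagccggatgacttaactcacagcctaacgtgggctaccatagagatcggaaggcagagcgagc

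**Figure D3:**
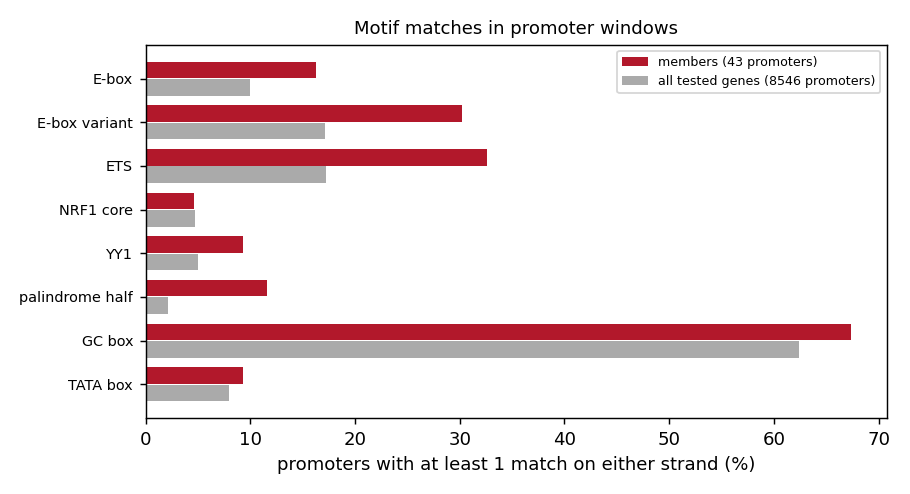
Percentage of promoter windows with at least 1 match on either strand (horizontal axis) for each searched word, in red for the 43 matched ribosome biogenesis genes and in grey for the 8546 windows of tested genes. The ETS word reaches 32.6% in red against 17.2% in grey, and the GC box is similar in both.

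Some of the genes host small nucleolar RNAs. In GENCODE M21, 8 of the 50 genes (16.0%) contained an annotated snoRNA on the same strand, against 2.38% of the 10751 tested genes found there. The sets are not alike, since the 50 include 7 genes without an adjusted p, among them the hosts Dkc1 and Gnl3. Nop56 held 5, Nop58 held 4, Ncl, Wdr43 and Gnl3 held 3 each, Tsr1 and Ppan held 2 each and Dkc1 held 1. Ncl alone of the 6 tested hosts was called, too few genes to set against the 16.7% of all tested genes that were higher. The value of Nop56 among the 6 came from its non-coding row. Other hosts are long non-coding RNAs: of 14 tested snoRNA host long non-coding RNAs, 9 were lower and 2 were higher, with a median of -0.52. These shares were 64.3% lower and 14.3% higher, against 16.8% and 16.7% of all tested genes. Zfas1 had -1.27 ± 0.09 (adjusted p 1.22e-41), Snhg12 had -1.32 ± 0.14 (adjusted p 1.03e-20), and the 2 higher ones were Snhg3 (0.36 ± 0.07) and Snhg18 (0.90 ± 0.19) in the authors' deposited table. The difference between coding and non-coding hosts was not tested.

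Lists of the rest of the pathway held both higher and lower genes. The 132 further genes of rRNA transcription, processing and assembly included 108 tested ones. Of these, 25 rose (23.1%), 7 fell (6.48%), and the median was 0.08. The share that rose lay between the 16.7% of all tested genes and the 31.7% of genes with a base mean of 1000 or more, and the share that fell was below both backgrounds. Small subunit factors had 11 of 39 higher (28.2%), 1 lower (2.56%) and a median of 0.11. The highest of them in the authors' deposited table were Nol7 (0.56 ± 0.10, adjusted p 4.55e-08) and the helicase Ddx47 (0.48 ± 0.07, adjusted p 8.18e-12). The U3 snoRNP protein gene Imp3 was the 1 lower gene, with -0.34 ± 0.09 (adjusted p 0.00119) in the authors' deposited table.

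Large subunit factors outside the set went both ways, with 7 of 34 higher (20.6%), 4 lower (11.8%) and a median of 0.02. Over all tested genes the shares were 16.7% and 16.8%, and at a base mean of 1000 or more 31.7% and 24.2%. Ddx27, a helicase, had 0.38 ± 0.07 (adjusted p 1.99e-06) and Eif6, which keeps the 60S subunit from joining early, had 0.28 ± 0.06 (adjusted p 1.21e-05) in the authors' deposited table. Lower in the authors' deposited table were the late cytoplasmic 60S factor Zfp622 (-0.53 ± 0.07, adjusted p 1.51e-12), the histone chaperone Npm3 (-0.49 ± 0.07), Nop53 (-0.30 ± 0.06) and the GTPase Gtpbp4 (-0.25 ± 0.06). Outside the 50 genes, 60S assembly factors therefore included both rising and falling transcripts.

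Further polymerase I genes had 9 tested, with Rrn3, the initiation factor, higher (0.20 ± 0.07, adjusted p 0.0305) and Ttf1, the termination factor, lower (-0.26 ± 0.10, adjusted p 0.0451) in the authors' deposited table. Of 10 snoRNP assembly genes, Rpap3, Ruvbl1 and Ruvbl2 were higher, and the cap hypermethylase Tgs1 was lower (-0.41 ± 0.09, adjusted p 1.75e-05) in the authors' deposited table. Of 16 tested exosome and RNase MRP genes, 3 were higher, Pop5, Exosc7 and Rpp30, and none lower. RNA polymerase III and 5S rRNA genes had 5 of 16 higher and 1 lower with a median of 0.16, led in the authors' deposited table by Gtf3c2 (0.39 ± 0.06) and the largest subunit Polr3a (0.47 ± 0.09). Polr3b, Polr3c and Polr3g were the other higher genes. The 1 lower gene was Bdp1, an initiation factor (-0.24 ± 0.07, adjusted p 0.00564) in the authors' deposited table. In the lists of this paragraph 11.1% to 31.2% of tested genes were higher and 0% to 11.1% lower. Over all tested genes the shares were 16.7% and 16.8%, and at a base mean of 1000 or more 31.7% and 24.2%.

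Among known regulators, all 4 rows of Myc were listed at 0, so its level cannot be given, and Mycn had 0.46 ± 0.30 (adjusted p 0.252) in the authors' deposited table. Of 15 tested genes of the MYC network and mTORC1, 4 were higher (26.7%) and 2 lower (13.3%), with a median of -0.09. Over all tested genes the shares were 16.7% and 16.8%, and at a base mean of 1000 or more 31.7% and 24.2%. MAX partners that repress E-box genes went both ways in the authors' deposited table, with Mxi1 (0.75 ± 0.11) and Mxd3 (1.07 ± 0.24) higher and Mxd1 (-0.39 ± 0.08) and Mxd4 (-0.29 ± 0.10) lower. The kinase Mtor (0.28 ± 0.07, adjusted p 0.000115) and its activator Rheb (0.24 ± 0.06, adjusted p 0.00129) were both higher in the authors' deposited table. Values of mRNA do not measure the activity of these regulators.

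Genes for the ribosomal proteins, whose products the assembly factors handle, are given side by side with them. Of 67 tested cytoplasmic ribosomal protein genes 24 were lower (35.8%) and 1, Rps2, was higher (1.49%), with a median of -0.12. The 64 tested mitochondrial ones had 24 higher (37.5%), 5 lower (7.81%, Mrpl14, Mrpl23, Mrpl41, Mrpl50 and Mrps9) and a median of 0.21. Over all tested genes 16.7% were higher and 16.8% lower. Among genes with a base mean of 1000 or more the shares were 31.7% and 24.2%, nearer to the 37.5% and 35.8% of the families. Median base means were 45534 for the cytoplasmic and 1362 for the mitochondrial family. All 3 families come from the same fit and libraries, and the differences between them were not tested.

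**Figure D4:**
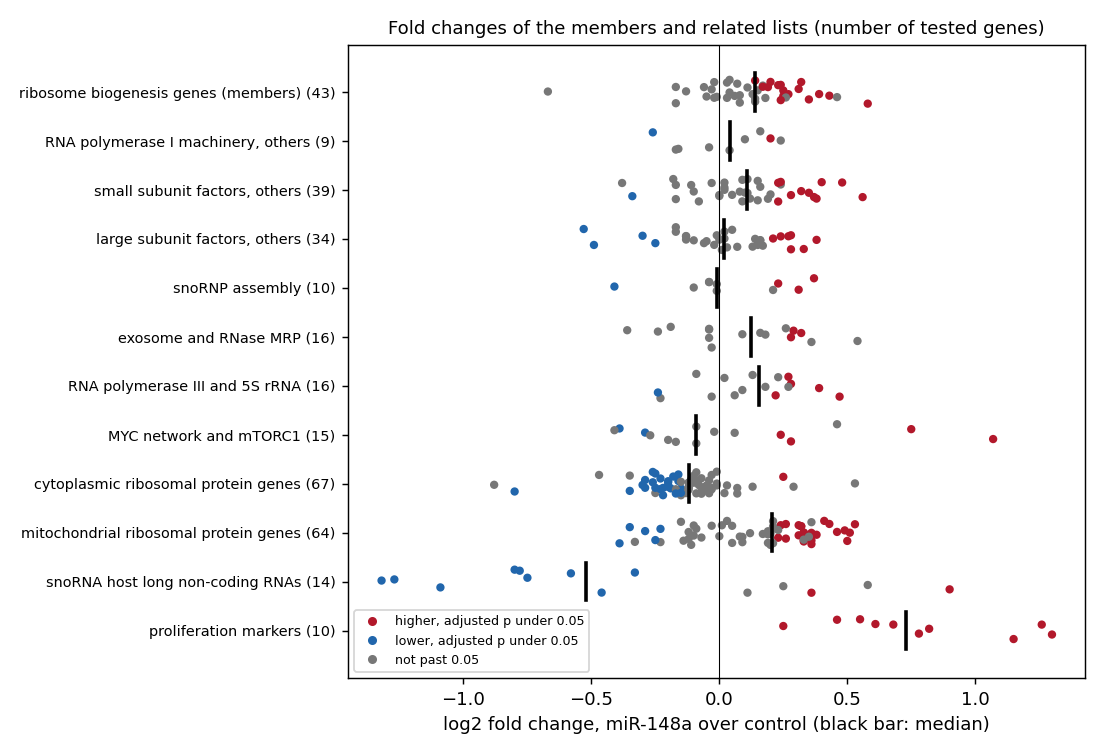
Log2 fold change of miR-148a over control (horizontal axis) for each tested gene of the ribosome biogenesis set and of related lists, red where higher and blue where lower at an adjusted p under 0.05, with a black bar at each median and the number of tested genes in brackets. The medians are 0.14 for the set, 0.21 for mitochondrial and -0.12 for cytoplasmic ribosomal protein genes, and 0.73 for proliferation markers.

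Other measures moved with the same contrast. All 10 tested proliferation markers were higher, from 0.25 to 1.30 with a median of 0.73, as in Ccnb1, cyclin B1 (1.15 ± 0.08, adjusted p 1.4e-41 in the authors' deposited table). Of 6 keratinocyte markers 5 were tested, 1 was higher and 1 lower, with a median of -0.36. Krt5 was higher (0.49 ± 0.06, base mean 630448) and Dsg3 lower (-0.39 ± 0.06, adjusted p 2.83e-11, base mean 33624) in the authors' deposited table. Itga6 (-0.47 ± 0.37, base mean 6.5) and Itgb4 (-0.36 ± 0.35, base mean 4.22) did not pass in the authors' deposited table. Trp63 was listed at 0 in its 8 rows, and Krt14 was low (base mean 40.3) in the authors' deposited table. These too are given only as listings and are not read as absence of the genes from the cells. The keratinocyte median is the value of the barely counted Itgb4, so it and the summed base means of marker lists are rough. Of 7 fibroblast markers 4 were lower (Thy1, Col3a1, Col1a1 and Col1a2), none was higher, and the median was -0.42 at a summed base mean of 22853, against 664123 for the 6 keratinocyte markers. Of 4 tested melanocyte markers 1, Mlana, was lower (summed base mean 15004), both tested immune markers, Lyz2 and C1qa, were lower (summed base mean 63.5, with Ptprc, Cd207 and Cd74 listed at 0), and the 1 tested endothelial marker, Vwf, was lower (base mean 104, with Pecam1 and Tek listed at 0). None of 4 Merkel cell markers was called, and none of 3 muscle markers was tested. The part of dividing cells or of other cell types in the changes of the ribosome biogenesis genes was not tested, and in bulk RNA a change in the number of cells of a type cannot be told apart from a change of RNA per cell.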

How the data were processed

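RNA was sequenced from primary mouse keratinocytes in 6 libraries, 3 per group by their titles. Per the submitters' processing notes, DESeq2 and the build mm9 are named; their versions, the aligner and the counter were not given in the sources used here. For 42885 RefSeq transcripts the authors deposited, per the file headers, a base mean, which is a signal averaging normalized counts, a Wald score, a log2 fold change with its standard error, and a p-value before and after adjustment. A second deposited table counts changed genes per Gene Ontology category, with p-values of over-representation. Neither holds values per library, so no test was refitted here, depth is unknown, and a gene was called at the authors' adjusted p under 0.05.

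Accessions were matched to symbols through RefSeq GRCm38.p6 (42739 matched), and a gene was represented by its row with the highest base mean, which gave 11038 tested genes. The sign of the fold changes was turned. The authors' filter acted on the mean over all libraries (lowest tested base mean 3.56). Intervals are the estimate ± 1.96 SE. Named genes were all members, and, of each other list, up to 3 with the lowest adjusted p, plus some chosen after their values were seen to name small counts or a role. Members and lists were chosen with earlier results of these data known. Sites, snoRNA positions and promoter words were read from GENCODE M21 and RefSeq on GRCm38, not mm9, with Python 3.11.15, pandas 2.3.3 and numpy 2.4.6. The recentring step was tested on simulated data with the centre taken over all tested transcripts. Centring on transcripts with a base mean of at least 1000 was not simulated. Alternatives were the adjusted p threshold, a minimum log2 change of 0.32, the row per gene, base mean minimums, the centring and the sign; genes with a single row and a base mean of at least 1000 were added after seeing the data.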

Additional observations from a re-analysis of the deposited data

How the results depend on the processing

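The count of 16 called ribosome biogenesis genes was 12 at an adjusted p of 0.01 and 18 (16 higher, 2 lower) at 0.1. With a log2 change of at least 0.32 also required it was 5, all higher. It remained 16 with the row of the smallest standard error, a base mean of at least 100, genes with a single row, a base mean of at least 1000, or centring on all tested transcripts. Centring on transcripts with a base mean of at least 1000 gave 14, 12 higher and 2 lower (Nop56 and Rrp9). The box C/D snoRNP count of 1 became 2 there, and large subunit assembly went from 8 to 5, as it also did at an adjusted p of 0.01. At 0.01 the other polymerase I genes went from 2 calls to 0, and the exosome and RNase MRP genes from 3 to 0. The median of 0.14 was between 0.09 and 0.15 under the alternatives to row, filter and centring, and -0.14 if the deposited values are read as miR-148a over control. No paired analysis was possible because the table has no value per library; for the same reason no library could be left out, and counting depth sets no interval here.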

Other observations

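Small nucleolar RNAs themselves had 118 genes in the deposited table, 24 of them listed at 0 and 71 tested. Their median log2 fold change was 0.04 and their base means were no higher than 229. Of the 71, 1 was higher and 2 were lower, where 16.7% and 16.8% of all tested genes were. Called in the authors' deposited table were Snora7a (0.96 ± 0.35, adjusted p 0.0193), higher, and Snora28 (-0.55 ± 0.22, adjusted p 0.0381) and Snora65 (-0.57 ± 0.21, adjusted p 0.0263), lower. Of the genes that link stalled ribosome assembly to p53, 5 of 7 were tested and 1 was called, Rpl5, at -0.22 ± 0.06 (adjusted p 0.00135) in the authors' deposited table.

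Of the 26 ribosome categories searched for, 6 were in the authors' Gene Ontology table, out of 951 in all. Structural constituent of ribosome had 28 changed of 47 genes (adjusted p 8.58e-05), while maturation of 18S rRNA from the long precursor had 5 of 16 and that of 28S rRNA had 3 of 8, both with an adjusted p of 1.0 in the authors' deposited table. Nucleolus had 1 changed of 4 genes in the authors' deposited table, and the remaining pair of categories, with 2 and 1 genes, had none. Another 4 categories were looked up after the values were seen. In the authors' deposited table, ribosomal large subunit assembly had 13 of 24 genes changed (adjusted p 0.0228), maturation of LSU-rRNA 4 of 4 (adjusted p 0.228), large subunit export 5 of 7 (adjusted p 0.228) and RNA polymerase I activity 2 of 10 (adjusted p 1.0). Neither the direction of change nor the genes behind these counts can be read from it.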
